A study of Mus musculus with 7 samples.

Results

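The 9 genes described here, Atoh1, Neurog1, Neurog2, Neurod1, Neurod4, Barhl1, Lhx2, Lhx9 and Olig3, encode proneural and rhombic lip transcription factors and were chosen by symbol out of 32285 genes in the count matrices. They were followed in 7 single-cell RNA-seq libraries of EGFP-positive cells from mouse embryos of the strain labelled Swiss-Webster, a mixed background per the methods of the study. All embryos carried Wnt1-Cre/+ and ROSA-EGFPf/+. Control libraries had no further allele named: 1 at E8.5 from the anterior embryo, 1 at E9.5 from the pharyngeal apparatus with heart, and replicates 1 and 2 at E10.5 from arches 2 to 6 with heart. The libraries titled Tbx1 null, 1 at E9.5 and replicates 1 and 2 at E10.5, came from the same region at E9.5 and from the apparatus below arch 1 with heart at E10.5. Their genotype entry in the labels reads Tbx1+/-, whereas the sample list of the study gives Tbx1-/-, and the null name of the titles is kept here. That list also gives fewer somites for null replicate 1 than for the other pools of E10.5. Embryo age was thus not equal among these libraries, and its part was not tested. Each library pooled embryos, so the library is the replicate, E8.5 has 1 control library only, E9.5 has 1 library per genotype, and p-values measure the spread between pools. Stage cannot be told apart from the dissected region, which lost arch 1 at E10.5, and at E8.5 also not from the kit, which was version 2 there and version 3 or 3.1 elsewhere. The null libraries of E9.5 and of replicate 1 at E10.5 were made with version 3 and the other libraries of these stages with 3.1, so that genotype and kit cannot be told apart at E9.5, nor genotype and the labelled region at E10.5. In comparisons without null replicate 2, the null library left at E10.5 is of version 3, so genotype and kit cannot be told apart there either. Wnt1-Cre is active in the dorsal neural tube as well as in premigratory neural crest cells (NCCs), and the neural tube was part of the dissected tissue, so the sort also holds neural tube cells.

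Atoh1, Neurog1, Neurog2, Neurod1 and Neurod4 are basic helix-loop-helix (bHLH) activators that bind E-box motifs and drive progenitors out of the cell cycle into neuronal differentiation; Neurod1 and Neurod4 act downstream of the Neurog genes. In the dorsal hindbrain and spinal cord, the rhombic lip and the most dorsal progenitor domain express Atoh1, the neighbouring domain expresses Neurog1 and Neurog2, and the bHLH factor Olig3 spans the dorsal progenitor domains. Barhl1, Lhx2 and Lhx9 are homeodomain factors of the postmitotic neurons that descend from Atoh1-positive cells. In the peripheral nervous system, Neurog1 and Neurog2 also start sensory neurogenesis in cranial placodes and in Sox10-positive neural crest.

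On the mm10 assembly (GENCODE M21), Atoh1 lies at chr6:64729125-64731245, + strand, Neurog1 at chr13:56250478-56252163, - strand and Olig3 at chr10:19356533-19358604, + strand, each with 1 exon. Neurog2 (chr3:127633135-127635631, + strand), Neurod1 (chr2:79452521-79456751, - strand) and Neurod4 (chr10:130268152-130280240, - strand) have 2 exons each. The coding transcripts of Barhl1 (chr2:28907679-28916668, - strand) have 3 to 5 exons, those of Lhx2 (chr2:38339281-38369733, + strand) 3 to 5 and those of Lhx9 (chr1:138825186-138848577, - strand) 5 to 8. Of the genes that were higher at E10.5 than at E9.5 in neural cells, 3 have a start listed at the outer end of the gene, and the 250 bases before that start are shown because these genes moved together. They are RefSeq sequences on GRCm38.p6, read 5′ to 3′ on the gene's strand, with E-boxes (CANNTG on either strand) in capitals.
Atoh1, chr6:64728875-64729124, + strand: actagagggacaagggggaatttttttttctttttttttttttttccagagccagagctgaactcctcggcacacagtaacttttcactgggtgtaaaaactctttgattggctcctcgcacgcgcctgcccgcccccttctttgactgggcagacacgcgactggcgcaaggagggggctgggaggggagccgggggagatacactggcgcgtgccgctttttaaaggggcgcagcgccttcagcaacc
Barhl1, chr2:28916669-28916918, - strand: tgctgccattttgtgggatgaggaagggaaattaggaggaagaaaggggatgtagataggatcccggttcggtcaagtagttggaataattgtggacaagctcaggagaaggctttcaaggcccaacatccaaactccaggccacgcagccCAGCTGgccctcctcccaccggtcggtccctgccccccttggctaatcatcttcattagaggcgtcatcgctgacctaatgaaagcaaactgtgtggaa
Lhx2, chr2:38339031-38339280, + strand: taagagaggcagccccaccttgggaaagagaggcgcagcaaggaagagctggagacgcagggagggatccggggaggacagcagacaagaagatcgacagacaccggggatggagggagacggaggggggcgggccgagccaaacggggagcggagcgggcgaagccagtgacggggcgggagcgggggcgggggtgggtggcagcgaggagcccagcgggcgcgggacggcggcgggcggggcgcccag
The Barhl1 sequence holds 1 E-box, CAGCTG, and the others hold none in this window. Among 32851 promoter windows of the same length, 66.2% held a CANNTG and 13.0% a CAGCTG.

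Cells were taken in 3 classes by unique molecular identifiers (UMIs). Neural progenitor cells had at least 1 Sox2 UMI and no Twist1 UMI, neuronal cells had at least 3 UMIs of Tubb3 and Stmn2 together, and Sox10 cells had at least 1 Sox10 UMI. None of the genes that set the classes is among the 9. The classes overlap: 16.3% and 20.4% of progenitor cells of the null and control libraries at E9.5 and 32.6% to 68.3% at E10.5 were also neuronal, and 51.2% to 57.7% of Sox10 cells at E10.5 were also progenitor cells; crest-derived glia are known to make Sox2 too. At E10.5 the controls held 2737 and 1379 progenitor, 2235 and 1465 neuronal and 254 and 656 Sox10 cells, of 6723 and 9163 kept cells. The nulls held 4198 and 3528 progenitor, 3305 and 5182 neuronal and 1495 and 1163 Sox10 cells, of 8058 and 6505 kept cells. Both nulls thus had more cells of each class than both controls, and the part of this in the results was not tested. All 9 progenitor, 10 neuronal and 7 crest and glia markers of the lists used as a check were detected in their own class in each library. Detection asked for 1 UMI in the class sum only, so it says little about the identity of a class. At E8.5 the neuronal class was not marked by its list, whose members summed to 97.9 CPM (UMIs per 1000000 UMIs of the class) in neuronal and 98.8 CPM in progenitor cells, so it is called by its rule alone at that stage. At E10.5 the list summed to 1774 to 3625 CPM in neuronal cells and 636 to 1224 CPM in progenitor cells. A level over a class does not part the share of positive cells from the level within them. The libraries count 3′ ends, so UMIs do not grow with transcript length. Mesenchymal cells, with Twist1 but without Sox2, Sox10 or 3 neuronal UMIs, served as a background class. At E9.5 they had 36.6% and 61.6% of the whole-library CPM of Lhx2 in the control and null library. For Lhx9 these shares were 27.3% and 25.9%, and at E8.5 their Atoh1 level was 164% of that of the library. They are thus a poor background for Lhx2 and Lhx9 at E9.5 and for Atoh1 at E8.5.

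Null replicate 2 at E10.5 stood apart from the other libraries. It had 79.7% of its cells in the neuronal class, against 16% to 41.0% in the other libraries at E10.5. Its mesenchymal cells carried 186 CPM of the 10 neuronal markers, 7.38 CPM of Olig3 and 4.85 CPM of Atoh1, where the other libraries at E10.5 had 64.8 to 71.1 CPM of the markers, 0.375 to 1.48 CPM of Olig3 and 0.187 to 0.925 CPM of Atoh1. Erythroid markers summed to 10.2 CPM in its progenitor cells and at most 1.02 CPM in those of any other library; 0 of its 6 genes were at 0 there and 2 to 4 elsewhere. The part of these RNAs in the results was not tested, and results that rest on this library are also given without it. Total UMIs ran from 140264662 to 234844769 per library, 5587 to 9557 cells were kept, and no pair of libraries shared more than 44 cell barcodes. Tbx1 itself had 0.537 to 5.19 CPM over all kept cells, with 5.19 and 3.80 in the controls and 2.97 and 2.67 in the nulls at E10.5; it is made mainly by tissues outside this lineage, so its level checks the labels poorly.

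After each cell was thinned to 5000 UMIs, a UMI of at least 1 of the 9 genes was found in 8.65% of progenitor cells at E8.5, in 57.6% and 57.3% of those of control and null libraries at E9.5, and in 67.6% and 54.0% of the control and 60.3% and 69.8% of the null progenitor cells at E10.5. At E8.5 the leading gene was Neurog1, and from E9.5 on it was Olig3. In progenitor cells at E10.5 the order of the mean levels was Olig3, Atoh1, Barhl1, Neurog2, Neurog1, Neurod1, Lhx2, Lhx9 and Neurod4, and the ranges over the 4 libraries overlapped for every pair of neighbours in this order; the plot of levels by library and class shows every value.

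**Figure D1:**
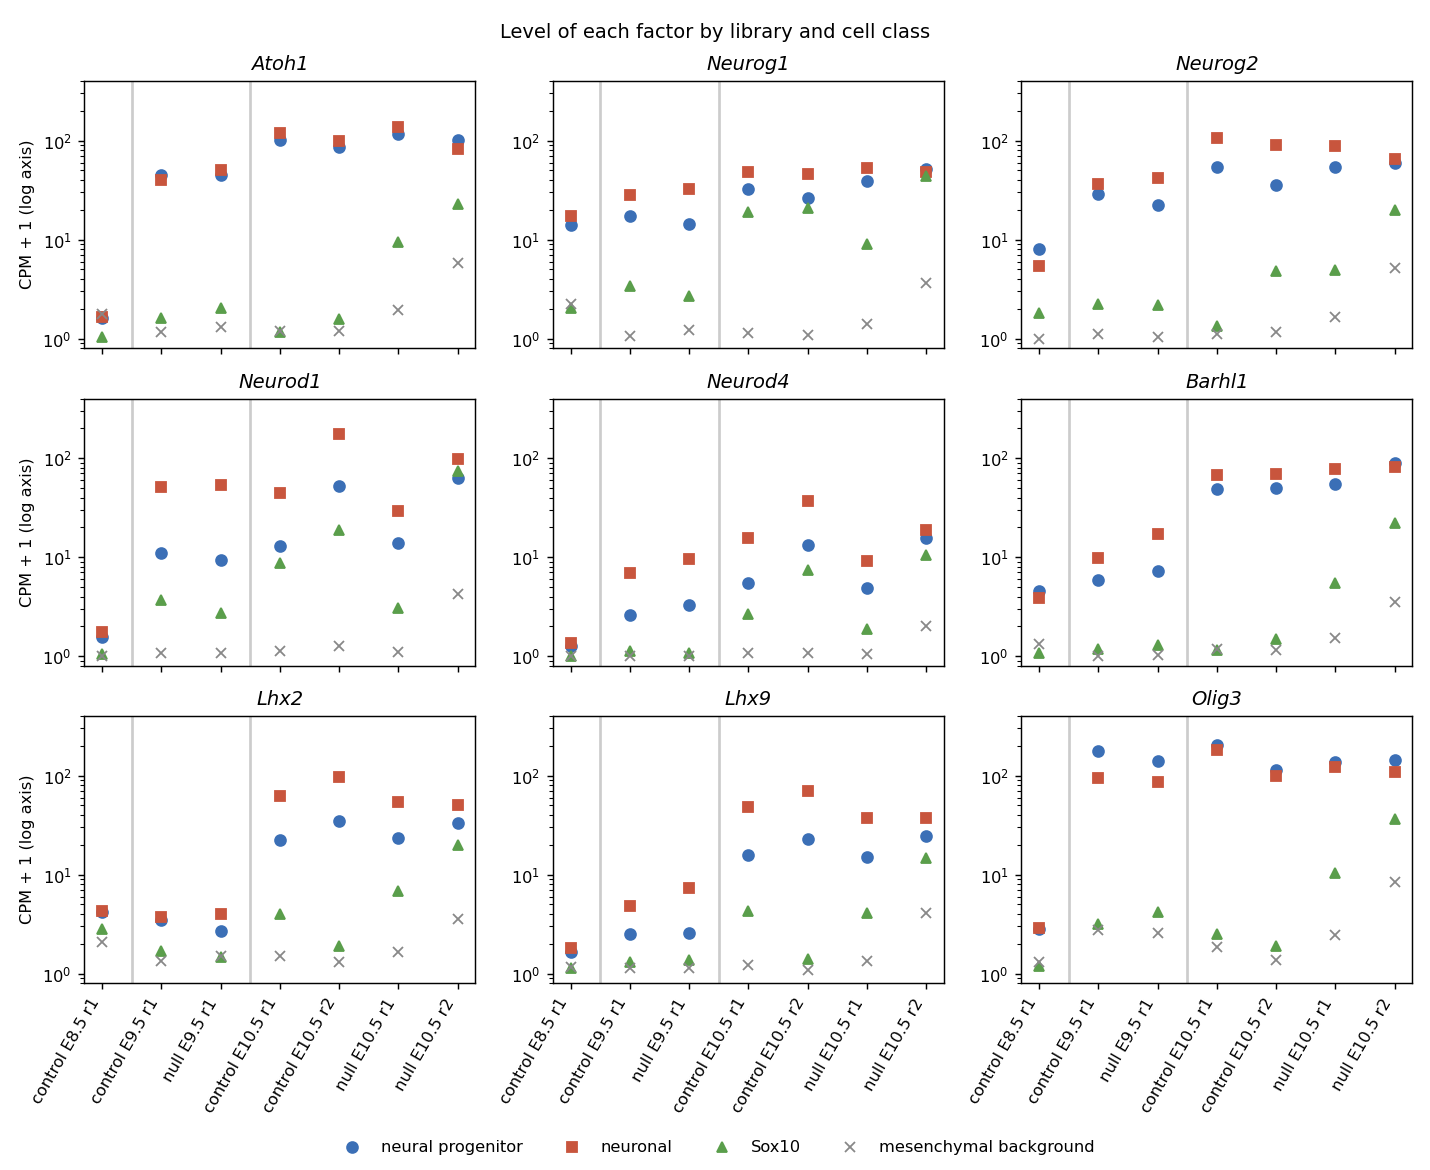
Level of each of the 9 factors, in CPM plus 1 on a log axis, in the 7 libraries (r1 and r2 are replicates 1 and 2; grey lines part the stages), with 1 point per cell class. Atoh1, Barhl1, Lhx2 and Lhx9 sit higher at E10.5 than at E9.5 in progenitor and neuronal cells, and the mesenchymal points of null replicate 2 at E10.5 lie above those of the other libraries at that stage.

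Olig3, the broad dorsal progenitor factor, was the most abundant of the 9 in progenitor cells from E9.5 on. Its level there was 1.85 CPM at E8.5, 177 and 139 CPM in control and null libraries at E9.5, 202 and 113 CPM in E10.5 controls, and 138 and 143 CPM in E10.5 nulls. It was nearly absent at E8.5, and the 6 later libraries overlapped between stages and between genotypes. After thinning, 39.6% to 55.9% of progenitor cells at E10.5 carried an Olig3 UMI, against 0.332, 0.156, 0.774 and 4.50% of mesenchymal cells in control replicates 1 and 2 and null replicates 1 and 2. Median depths before thinning were 11588 to 17396 UMIs in progenitor and 16624 to 25250 UMIs in mesenchymal cells. In neuronal cells Olig3 ran from 99.3 to 181 CPM at E10.5.

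Atoh1, the rhombic lip determinant, came next. In progenitor cells it had 0.601 CPM at E8.5, 43.6 and 44.2 CPM in control and null libraries at E9.5, 100.7 and 84.9 CPM in E10.5 controls, and 115 and 99.9 CPM in E10.5 nulls. All 4 libraries at E10.5 lay above both libraries at E9.5, as for 45.9% of all genes tested in this class, and the genotypes overlapped. A UMI was found in 21.0 to 23.5% of progenitor and 20.4 to 23.5% of neuronal cells at E10.5 after thinning, and in 0.0415 to 1.66% of mesenchymal cells.

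The Neurog genes were lower than Atoh1 in progenitor cells of every library from E9.5 on. Neurog1 had 13.0 CPM at E8.5, 16.3 and 13.4 CPM in control and null libraries at E9.5, 31.6 and 25.4 CPM in E10.5 controls, and 37.9 and 50.3 CPM in E10.5 nulls. It was the only 1 of the 9 above 10 CPM in E8.5 progenitor cells. Neurog2 had 7.01 CPM at E8.5, 28.0 and 21.5 CPM in control and null libraries at E9.5, 53.2 and 34.9 CPM in E10.5 controls, and 53.5 and 58.8 CPM in E10.5 nulls, and in neuronal cells at E10.5 it was higher than in progenitor cells in each library, at 106 and 88.8 CPM in the controls and 86.6 and 63.8 CPM in the nulls.

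Neurod1 and Neurod4, which follow the Neurog genes, varied most between replicates. Neurod1 in neuronal cells had 0.747 CPM at E8.5, 50.5 and 52.3 CPM in control and null libraries at E9.5, 43.7 and 176 CPM in E10.5 controls, and 28.2 and 96.5 CPM in E10.5 nulls. Replicate 2 was above replicate 1 in both genotypes, in progenitor cells as well (12 and 51.3 CPM in the controls and 12.9 and 61.8 CPM in the nulls), and this difference between replicates was larger than that between genotypes. The pool of null replicate 1 was the youngest of these by somites, and the part of age was not tested. Neurod4, the least abundant of the 9 in neuronal cells at E10.5, followed the same order with 14.8 and 35.6 CPM in the controls and 8.13 and 17.9 CPM in the nulls.

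The 3 homeodomain genes were late. Barhl1 in progenitor cells had 3.58 CPM at E8.5, 4.87 and 6.31 CPM in control and null libraries at E9.5, 47.8 and 48.9 CPM in E10.5 controls, and 53.7 and 87.7 CPM in E10.5 nulls. Lhx2 in neuronal cells had 3.34 CPM at E8.5, 2.74 and 3.0 CPM in control and null libraries at E9.5, 60.8 and 95.2 CPM in E10.5 controls, and 53.6 and 49.5 CPM in E10.5 nulls. Lhx9 in neuronal cells had 0.822 CPM at E8.5, 3.87 and 6.36 CPM in control and null libraries at E9.5, 47.0 and 69.7 CPM in E10.5 controls, and 36.5 and 36.5 CPM in E10.5 nulls. For all 3 genes every library at E10.5 was above every library at E9.5 in both classes, as for 47.3% of all genes tested in neuronal cells. In neuronal cells at E10.5 both null libraries were below both controls for Lhx2, Lhx9 and Neurog2 and above them for Barhl1; 15.1% of all genes tested there were below and 26.4% above in this way, so that a gap between 2 and 2 libraries is common.

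To see how the levels follow differentiation, cells without a Sox10 UMI at E10.5 were parted by the conditions that they met: progenitor only, both progenitor and neuronal, or neuronal only. Atoh1, Neurog1, Barhl1 and Olig3 were highest in the cells that met both conditions in 4 of 4 libraries. Atoh1 ran from 39.3 to 56.5 CPM in progenitor-only cells, from 142 to 266 CPM in cells of both classes, and from 47.5 to 126 CPM in neuronal-only cells. Neurog1 followed with 7.21 to 27.7, 52.4 to 79.3 and 36.3 to 56.9 CPM, and Barhl1 with 13.8 to 25.7, 84.6 to 163 and 44.1 to 100.4 CPM. Neurod1 and Lhx9 were highest in neuronal-only cells in 4 of 4 libraries, and Neurod4 and Lhx2 in 3 of 4. Lhx9 went from 0.153 to 3.31 CPM in progenitor-only cells, where null replicate 2 was the highest, to 28.7 to 83.0 and then 54.6 to 108 CPM. Neurog2 was highest in cells of both classes in 2 libraries, replicate 2 of each genotype, and in neuronal-only cells in the other 2. The neuronal condition, unlike the progenitor condition, does not exclude cells with Twist1.

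**Figure D2:**
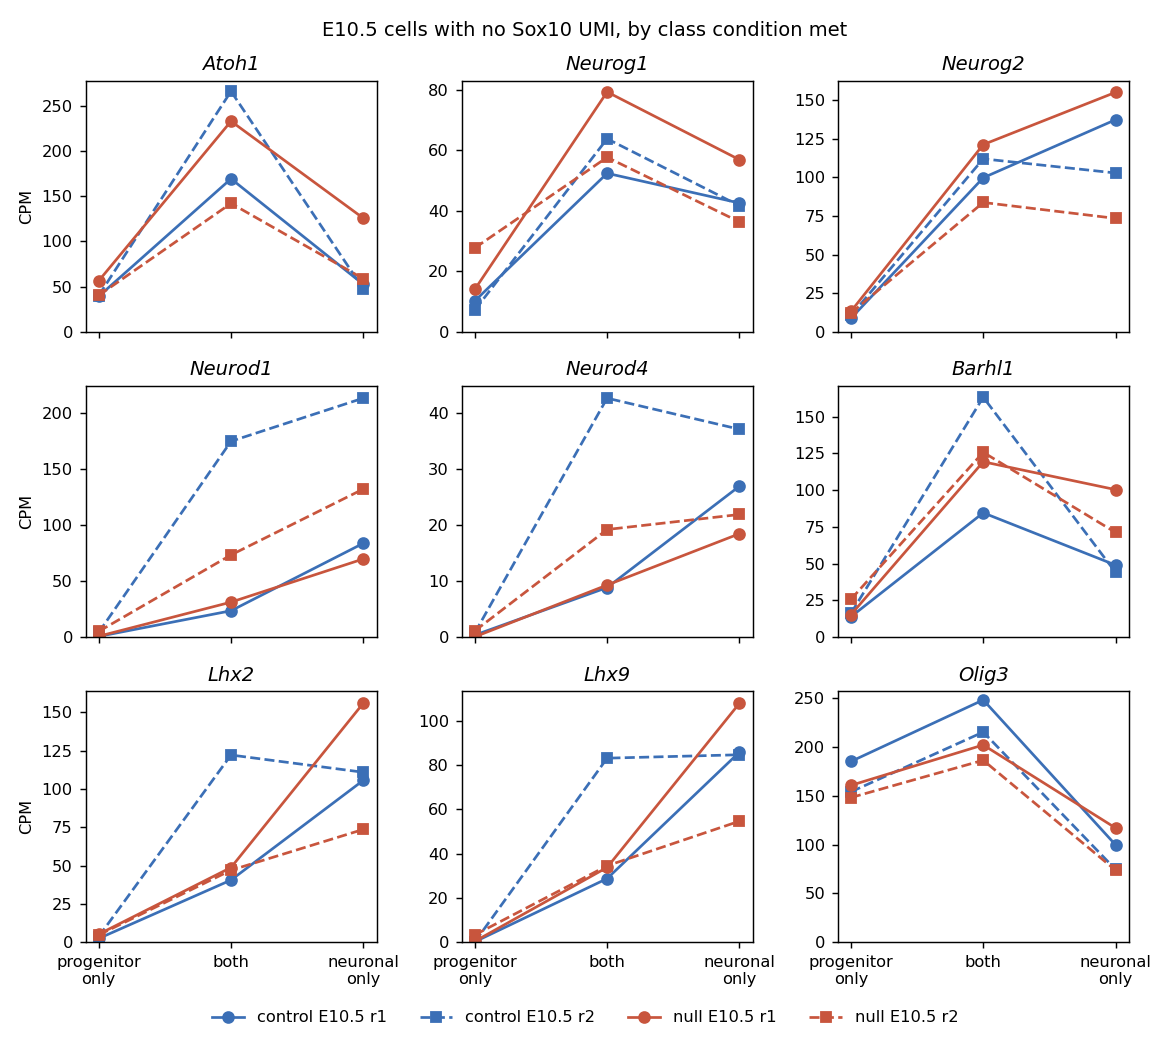
Level of each factor, in CPM on a linear axis from 0, in E10.5 cells with no Sox10 UMI that met the progenitor condition only, both conditions or the neuronal condition only. Each line is 1 of 4 libraries (blue, control; red, null; dashed, replicate 2); Atoh1, Neurog1, Barhl1 and Olig3 peak in the middle in all 4, and Lhx9 and Neurod1 end highest in all 4.

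Neuronal-only cells were then tested against progenitor-only cells at E10.5 with the library as a block (edgeR quasi-likelihood test, 4 libraries, Benjamini-Hochberg adjusted p over 13167 genes). Of the 9 genes 8 were higher and 1 was lower in neuronal cells, where 31.5% of all genes tested were higher and 31.3% lower. The median log2 difference was 3.40 over the 9 genes and -0.00258 over all genes tested. Lhx9 differed by 7.02 ± 0.52 (log2, SE; adjusted p = 3.8e-05), Neurod4 by 6.02 ± 0.35 and Neurod1 by 5.94 ± 0.28. Lhx2 followed with 4.86 ± 0.18, Neurog2 with 3.40 ± 0.18, Barhl1 with 1.89 ± 0.20 and Neurog1 with 1.67 ± 0.30. The difference of Atoh1 was the smallest of the rises, at 0.59 ± 0.14 (adjusted p = 0.0068), and it did not pass when both libraries of E9.5 were added (0.40, adjusted p = 0.051); Olig3 was lower, at -0.87 ± 0.09 (adjusted p = 1.7e-04). The call of each gene held without each library in turn, null replicate 2 included. In progenitor-only cells 4, 1, 11 and 21 UMIs of Lhx9 and 7, 5, 1 and 7 of Neurod4 were counted in control replicates 1 and 2 and null replicates 1 and 2. The low-count filter asked for 0.806 CPM in 4 sums, which Lhx9 and Neurod4 reached in 1 and Neurod1 in 2 of the 4 progenitor sums, so these 3 genes were tested through the neuronal cells and the size of their folds is not resolved at this depth.

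Genes of the same pathways, from lists drawn up with earlier results known, moved with them between these cells. Of 15 other proneural bHLH factors and early targets, 10 were tested, 8 were higher and 1 lower in neuronal cells, with Nhlh1, a bHLH gene of newborn neurons, at 5.89 ± 0.33 and the zinc finger gene Insm1 at 4.83 ± 0.39. Of 14 dorsal hindbrain neuron genes 13 were higher, led by Evx1 (8.69 ± 0.34) and Lhx1 (8.55 ± 0.37), homeodomain genes of interneurons. Of 10 sensory and autonomic neuron genes tested, 9 were higher and 1 was lower (median log2 difference 4.78). Of 16 Notch and Id genes tested, 11 were lower, among them the Notch target Hes5 (-3.34 ± 0.49), and 2 were higher, led by the Notch ligand Dll3 (3.74 ± 0.28). Of 14 dorsal progenitor and roof plate genes tested 13 were lower, led by the roof plate signal Gdf7 (-3.61 ± 0.64), and 1 was higher, and all 5 genes of the G2/M list were lower. All 6 mesenchyme markers were also higher in the neuronal-only cells (median log2 difference 3.98); mesenchymal cells were kept out of the progenitor class by its Twist1 condition only.

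Counted per cell, Atoh1 shared few cells with the Neurog genes and many with Barhl1. Each pair was counted in E10.5 neural cells, progenitor or neuronal with no Sox10 UMI, after thinning to 5000 UMIs, and set against the number expected if the genes were drawn independently over the 1785 to 4556 cells of a library. These counts describe cells of 4 libraries and carry no test. Atoh1 and Neurog1 were seen together in 6 cells where 63.0 were expected in control replicate 1, 1 where 38.6 were expected in control replicate 2, 15 where 114 were expected in null replicate 1, and 50 where 128 were expected in null replicate 2. The mean ratio of observed to expected cells was 0.161 ± 0.160 (SD, n = 4), and 0.0842 without null replicate 2, in which the ratio was 0.391. The ratio of Atoh1 and Neurog2 was 0.220 ± 0.0776. Those of Neurog1 with Barhl1, Lhx2 and Lhx9 ran from 0.0409 to 0.386, and to 0.184 at most without null replicate 2.

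Other pairs had ratios above 1. The highest ratio that a pair can reach falls as its more frequent gene is found in more cells. The ratios thus do not rank the pairs by their overlap. Atoh1 and Barhl1 had a ratio of 3.62 ± 0.250: of the 482 Barhl1-positive cells of control replicate 1, 381 were Atoh1-positive. Lhx2 and Lhx9, paralogs of the same LIM-homeodomain family, had the highest ratio, 7.44 ± 2.03, with 179 shared cells among 261 Lhx2-positive and 233 Lhx9-positive cells of control replicate 1. On the other side, Neurog1 and Neurog2 had a ratio of 3.45 ± 0.628, and Neurog2 and Neurod4 one of 4.02 ± 0.876. The ratio of Neurod1 ran from 2.99 to 4.64 with Neurog1, from 2.31 to 3.54 with Neurog2 and from 2.98 to 5.89 with Neurod4. With Lhx9 it ran from 1.31 to 2.77, and with Atoh1 from 0.847 to 1.18, around the number expected. The ratios of Olig3 with each of the other 8 genes lay between 0.841 and 1.55. Olig3 was found in 1724 of the 3269 cells of control replicate 1, so its ratios cannot rise far above 1 and are not comparable with those of rarer genes. At E9.5, Atoh1 and Neurog1 had ratios of 0.103 in the control and 0.227 in the null library.

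**Figure D3:**
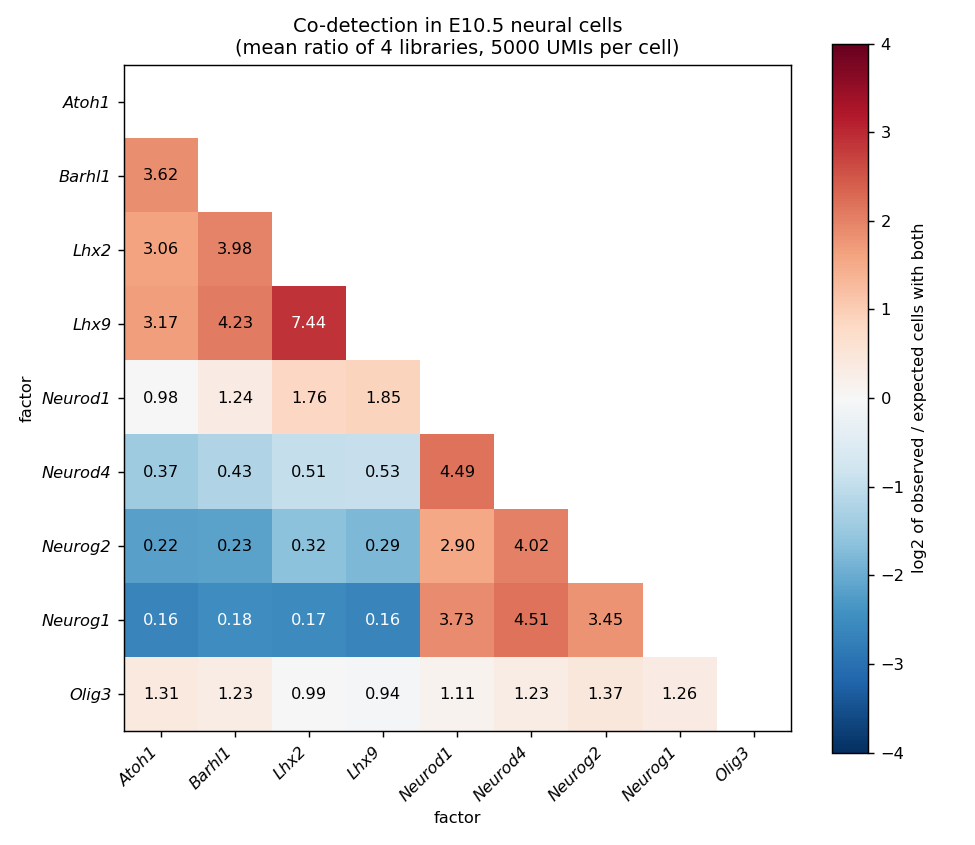
Ratio of observed to expected cells with a UMI of both factors, for each pair of the 9, as the mean of the 4 E10.5 libraries; colour is the log2 of the ratio (red, above 1; blue, below 1). Atoh1, Barhl1, Lhx2 and Lhx9 form 1 red block, Neurod4, Neurog2 and Neurog1 another, with blue between them, and the Olig3 row lies between 0.841 and 1.55. Neurod1 is red with each gene of the second block, and its ratios ran from 0.847 to 1.18 with Atoh1 and from 1.31 to 2.77 with Lhx9. The more frequent gene of a pair caps its ratio, which keeps the Olig3 row low.

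Other genes of the same cells, which the choice of the 9 did not use, were found beside some of the 9 more than beside others. A UMI of a G2/M gene was found in 49.0% to 74.2% of Olig3-positive, 37.4% to 62.6% of Atoh1-positive and 11.2% to 43.3% of Lhx9-positive neural cells at E10.5. In each library Olig3-positive cells were highest and Lhx9-positive cells lowest of these 3 groups; the 43.3% of Lhx9-positive cells in null replicate 2 was above the 11.2% to 22.1% of the other libraries. Wnt1, made by the dorsal midline, was found in 24.3% to 40.6% of Olig3-positive and 0.794% to 7.11% of Lhx9-positive cells.

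The Neurog1-positive cells of E8.5 differed from those of E10.5 in genes of position along the axis. Most of the few Olig3-positive cells of E8.5, described at the end, had a Hox gene. At E10.5, 97.7% to 98.8% of Atoh1-positive and 97.2% to 98.3% of Neurog1-positive cells had a UMI of a Hox gene of the hindbrain list, and at most 1.23% had one of Otx2, the forebrain and midbrain gene. At E8.5, 1.14% of the 88 Neurog1-positive neural cells had a Hox UMI (95% Clopper-Pearson interval 0.0288% to 6.17%), whereas 67.0% had Otx2 (56.2% to 76.7%). Over all neural cells of that library Otx2 was in 39.6%. The share with a Hox UMI over all neural cells is not given for either stage. The Hox shares thus do not set the Atoh1-positive and Neurog1-positive cells apart from other neural cells of their libraries. The dissection held the anterior embryo at E8.5 and the pharyngeal region later, and these intervals cover counting error only.

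From E9.5 to E10.5, 2 libraries against 4, Atoh1 and the 3 homeodomain genes were higher in the overlapping progenitor and neuronal classes. Atoh1 did not pass in progenitor-only or in neuronal-only cells, as given below. In progenitor cells 4 of the 9 genes were higher at E10.5 and none was lower, where 5.51% of the 15025 genes tested were higher. Lhx2 differed by 3.38 ± 0.29 (log2, SE; adjusted p = 0.0033, edgeR), Lhx9 by 3.23 ± 0.31 and Barhl1 by 3.05 ± 0.24, and Atoh1 by 0.84 ± 0.18 (adjusted p = 0.027). Neurog1 (0.90 ± 0.24, adjusted p = 0.053), Neurod4 (1.82 ± 0.58), Neurod1 (1.54 ± 0.68), Neurog2 (0.67 ± 0.24) and Olig3 (-0.42 ± 0.23) did not pass. Neuronal cells gave the same 4 calls against a background of 10.0% of genes higher, with Lhx2 at 4.08 ± 0.31 (adjusted p = 0.0024), Lhx9 at 2.78 ± 0.36, Barhl1 at 2.20 ± 0.22 and Atoh1 at 0.93 ± 0.26 (adjusted p = 0.044). Olig3 had a difference of 0.12 ± 0.25 there. Without null replicate 2, 4 of the 9 passed in progenitor and 5 in neuronal cells, where 2.56% and 5.82% of all genes were higher. The median log2 difference was 1.54 over the 9 genes in progenitor cells, against 0.07 over all genes. Neuronal markers moved with these calls: all 10 were higher in progenitor cells (median log2 difference 1.76), where they summed to 186 and 197 CPM at E9.5 and 636 to 1224 CPM at E10.5, and all 10 were higher in neuronal cells (2.03), with none at 0. Of 3 epithelium markers tested, 2 were lower in each class. Of 3 otic epithelium markers tested, 2 were lower in progenitor cells (median log2 difference -1.70), and of 7 crest and glia markers 2 were lower in neuronal cells (-0.61). Their part in the calls was not tested.

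Other neurogenesis genes were higher with them. Of 13 other proneural factors and early targets tested 8 were higher in each class, led by Atoh7 (3.88 ± 0.51 in progenitor cells), a bHLH relative of Atoh1, and 3 of 5 cell cycle exit genes were higher in progenitor cells, among them Btg2 (1.64 ± 0.19). Of 14 dorsal hindbrain neuron genes 12 were higher at E10.5 in each class, with Lhx1 at 5.80 ± 0.99 in progenitor cells and 5.60 ± 0.87 in neuronal cells. Of 15 dorsal progenitor and roof plate genes none passed in either class (median log2 difference -0.27 in progenitor cells). Of 14 Hox genes 9 were higher in progenitor cells, led by Hoxa5 (3.66 ± 0.35), and of 5 midbrain and isthmus genes tested En2 (-4.75 ± 0.62) and En1 (-2.98 ± 0.69), genes of the midbrain-hindbrain boundary, were lower and Otx2 was higher (3.85 ± 0.57). In neuronal cells 2 of 6 genes of that list were lower and 1 was higher. The part that axial position had in the calls of the 9 genes was not tested.

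The calls depended on which cells were counted. In progenitor-only cells 1 of the 8 genes that could be tested was higher at E10.5 and 1 was lower, where 4.64% of all genes were higher and 3.19% lower. In progenitor-only cells Atoh1 had 41.0 and 42.2 CPM at E9.5 and 39.3 and 40.2 CPM in the controls and 56.5 and 40.3 CPM in the nulls at E10.5, so that the libraries overlapped. The fitted log2 difference of Atoh1 was -0.25 ± 0.18 (adjusted p = 0.38) with TMM scaling and 0.0805 ± 0.18 (adjusted p = 0.77) without scaling factors, which moved the median of all genes from 0.0663 to 0.40, so no direction is given. Neurog2 was lower at E10.5 there (-0.91 ± 0.20, adjusted p = 0.022), and did not pass without scaling factors (-0.58 ± 0.22, adjusted p = 0.071). In cells that were both progenitor and neuronal, Atoh1 had 91.6 and 109 CPM at E9.5 and 169 and 266 CPM in the controls and 233 and 142 CPM in the nulls at E10.5. Barhl1 was still higher in progenitor-only cells at E10.5 (3.03 ± 0.28, adjusted p = 6.7e-04), Lhx2 did not pass (0.96 ± 0.34, adjusted p = 0.092), and Lhx9 had too few UMIs to be tested. In neuronal-only cells Lhx2, Lhx9 and Barhl1 were higher and Neurog1 was lower (-0.74 ± 0.21, adjusted p = 0.029), and Atoh1 did not pass (0.38 ± 0.30, adjusted p = 0.39); 13.0% of all genes were higher and 11.3% lower there. With either library of E9.5 left out, 0 of the 9 genes passed in progenitor cells, where 0 genes of 15895 passed without the control library and 5 of 15905 without the null library (2199 and 2250 at an unadjusted p under 0.05). In neuronal cells 0 of the 9 passed without the control library of E9.5, where 0.00626% of 15973 genes were higher (2478 at an unadjusted p under 0.05), and 3 passed without the null library, where 3.17% were higher. The call of Atoh1 in neuronal cells was lost with each library left out in turn (0.75 to 1.10, adjusted p = 0.054 to 0.39, edgeR) except null replicate 2 at E10.5 (1.11, adjusted p = 0.024).

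**Figure D4:**
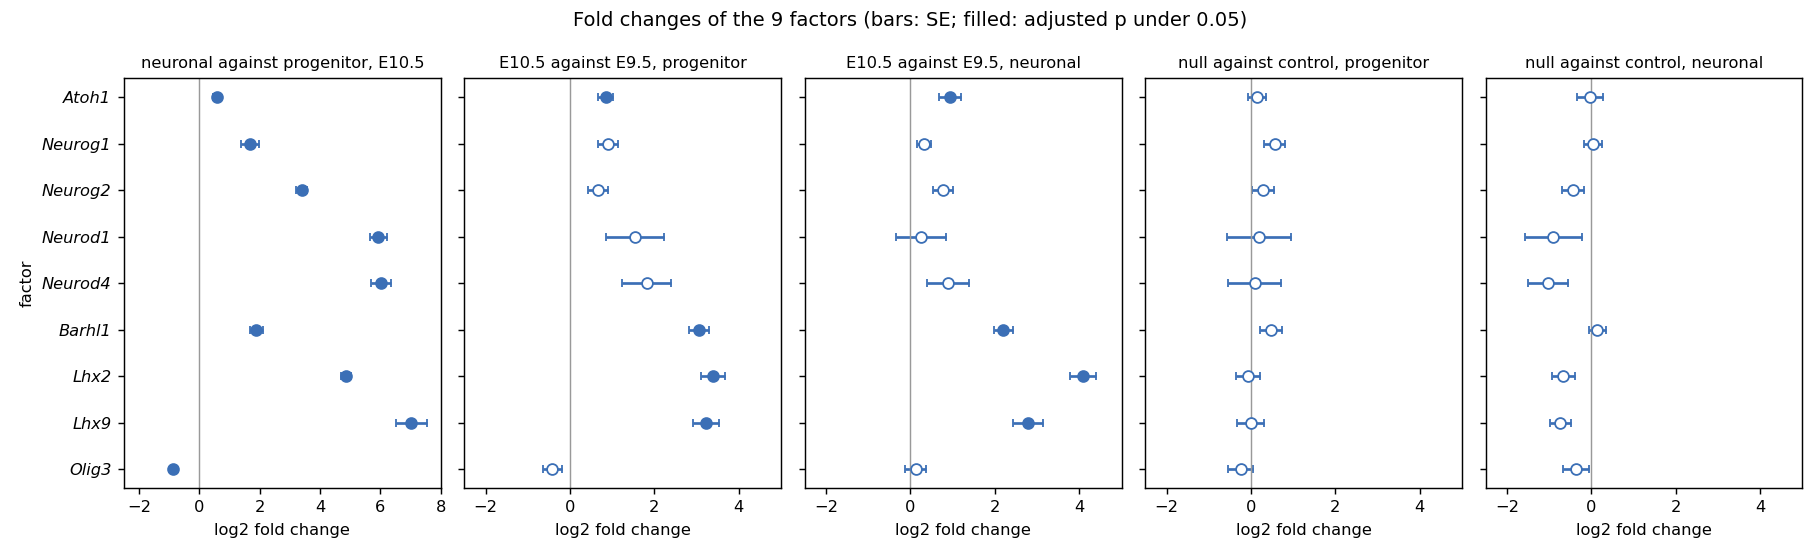
log2 fold change with its SE for each of the 9 factors in 5 comparisons (edgeR): neuronal against progenitor cells at E10.5, E10.5 against E9.5 in progenitor and in neuronal cells, and null against control at E10.5 in both. Filled points passed an adjusted p of 0.05: all 9 in the first panel, Atoh1, Barhl1, Lhx2 and Lhx9 in the stage panels, and none in the genotype panels.

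Between genotypes at E10.5, 2 libraries against 2, none of the 9 genes passed in neural cells. On simulated counts these fits recovered 12.5% of 200 planted 2-fold changes in progenitor and 12% in neuronal cells. Most changes of that size would thus be missed. In progenitor cells 0% of 15293 genes passed in either direction (775 at an unadjusted p under 0.05; DESeq2 called 42, none of them among the 9). The largest difference among the 9 was that of Neurog1, at 0.56 ± 0.24 (null minus control, adjusted p = 0.90), and Barhl1 followed at 0.48 ± 0.26. For these 2 genes and Neurog2 both null libraries lay above both controls, as for 24.8% of all genes tested. Atoh1 was at 0.15 ± 0.22 and Olig3 at -0.24 ± 0.30. In neuronal cells 0.0193% of 15554 genes passed (3 genes). Lhx9 was at -0.74 ± 0.25 (adjusted p = 0.60), Lhx2 at -0.66 ± 0.26 and Neurod4 at -1.03 ± 0.47, and Atoh1 at -0.03 ± 0.31. Without null replicate 2, again none of the 9 passed in either class, and Neurod1 alone passed in progenitor cells without control replicate 2 (1.47 ± 0.38), where 0.594% of 15995 genes were higher. The SE of Neurod1, 0.77 in progenitor and 0.68 in neuronal cells, was the largest of the 9.

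At E9.5 the 2 genotypes had 1 library each, so there is no replicate check. Atoh1 in progenitor cells had 43.6 CPM in the control (95% Poisson interval 41.5 to 45.8) and 44.2 CPM in the null library (41.9 to 46.6). Olig3 had 177 CPM (172 to 181) and 139 CPM (135 to 144). In neuronal cells Barhl1 had 8.82 CPM (7.58 to 10.2) and 16.2 CPM (14.2 to 18.5). The intervals parted for Olig3 and Barhl1 and overlapped for Atoh1, and they cover counting error in those 2 libraries only.

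In Sox10 cells of the E10.5 controls Neurog1 was the leading gene of the 9, and Neurod1 came next. Neurog1 had 1.03 CPM at E8.5, 2.37 and 1.72 CPM in control and null libraries at E9.5, 18.0 and 20.1 CPM in E10.5 controls, and 8.13 and 42.9 CPM in E10.5 nulls. At least 108 UMIs were behind each E10.5 value, and mesenchymal cells of the controls had 0.137 and 0.0986 CPM. After thinning, 5.15% and 5.86% of control Sox10 cells had a Neurog1 UMI, against 0.0829% and 0.0868% of mesenchymal cells (median depths 23971 and 17877 against 23072 and 16624 UMIs). Atoh1 was found in 0 of 233 and 0 of 648 control Sox10 cells, which allows shares of up to 1.29% and 0.463% of cells with a UMI at the thinned depth; before thinning these cells held 1 and 7 Atoh1 UMIs.

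The Neurog1-positive Sox10 cells carried sensory neuron genes. Among control cells at E10.5 with at least 3 Sox10 UMIs, 7 cells of replicate 1 and 26 of replicate 2 had at least 2 Neurog1 UMIs. Of these, 57.1% (95% Clopper-Pearson interval 18.4% to 90.1%) and 73.1% (52.2% to 88.4%) had Pou4f1, and 71.4% and 53.8% had Isl1, both factors of sensory neurons. In Sox10 cells with no Neurog1 UMI, Pou4f1 was in 6.88% and 8.23% and Isl1 in 2.5% and 4.12%. In the controls none of these cells had a UMI of Atoh1, Barhl1, Lhx2, Lhx9, Olig3 or Twist1; 0 of 26 cells allows a share of up to 11.5%. In null replicate 1, 35 such cells had Pou4f1 in 48.6% and Isl1 in 34.3%. In null replicate 2 the 90 cells also carried Olig3 (27.8%) and Atoh1 (17.8%). The genes named here were chosen after values of these data had been seen. These shares were taken on full counts, so depth was not matched between the cells with and without Neurog1 UMIs.

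Cells that met the Sox10 condition alone were compared with progenitor-only cells at E10.5. Of the 7 genes that passed the filter on low counts, 5 were lower in Sox10 cells, where 20.1% of 11790 genes were lower. They were Olig3 (-5.37 ± 0.37, adjusted p = 4.5e-06), Atoh1 (-4.37 ± 0.47), Barhl1 (-3.72 ± 0.48), Lhx2 (-2.58 ± 0.59) and Neurog2 (-2.49 ± 0.33). Neurog1 (-0.60 ± 0.55, adjusted p = 0.42) and Neurod1 (0.02 ± 0.49, adjusted p = 0.98) did not pass, and Neurod4 and Lhx9 had too few UMIs to be tested. Without null replicate 1, 4 of the 7 genes passed, where 14.9% of all genes were lower, and without null replicate 2, 5 of the 6 that could be tested, where 20.1% were lower. In the Sox10-only cells of the controls 0 UMIs of Barhl1 and of Lhx2 were counted, against 6 and 13 of Barhl1 and 5 and 6 of Lhx2 in the nulls. The 5 genes reached the filter's 1.55 CPM in all 4 progenitor sums and in 1 or 2 of the 4 Sox10 sums, so they were tested through the progenitor cells. Over the 4 Sox10 sums 57 UMIs of Olig3, 34 of Atoh1 and 33 of Neurog2 were counted. The sizes of the 5 folds are thus not resolved at this depth, and those of Barhl1 and Lhx2 rest on the null libraries. Of 14 Hox genes 13 were lower in Sox10 cells, and 7 of 9 sensory and autonomic neuron genes tested were higher, among them Prdm12 (5.11 ± 0.41), a gene of nociceptors, and Ret (4.87 ± 0.39), the receptor of GDNF family ligands, while the neurotrophin receptor genes Ntrk2 (-3.02 ± 0.24) and Ntrk3 (-2.43 ± 0.40) were lower. All 6 mesenchyme markers were higher as well (median log2 difference 4.59); the progenitor class leaves out cells with Twist1.

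From E9.5 to E10.5, 4 of the 9 genes were higher in Sox10 cells, where 13.9% of 14722 genes were higher: Neurod4 (5.07 ± 1.09, adjusted p = 0.0099), Barhl1 (3.45 ± 1.10, adjusted p = 0.044), Lhx9 (3.05 ± 0.92, adjusted p = 0.037) and Neurog1 (2.98 ± 0.59, adjusted p = 0.0071). Barhl1 had 0.167 and 0.486 CPM in the controls at E10.5, beside the 0.171 and 0.298 CPM of E9.5, and 4.52 and 21.0 CPM in the nulls. The controls thus overlapped with E9.5 and both nulls lay above. Neurod4 had 7 and 3 UMIs in control and null libraries at E9.5, below the filter's 0.278 CPM in both and above it in all 4 libraries of E10.5, so it was tested through E10.5 and the size of its fold is not resolved at this depth. Neurog1 was above both E9.5 values in each E10.5 library, as for 49.7% of all genes tested. Markers of other cells moved with these calls. Of 10 neuronal markers 8 were higher (median log2 difference 3.35), with sums of 68.9 and 76.4 CPM at E9.5 and 365 to 1105 CPM at E10.5. Of 9 progenitor markers 5 were higher (1.41), of 13 dorsal hindbrain neuron genes 10 were higher (4.00), and of 6 mesenchyme markers 4 were lower and 1 was higher (-1.57). Of 11 sensory and autonomic neuron genes tested 7 were higher (2.27), and of 7 crest and glia markers 5 were higher (1.14). Their part in the calls was not tested. Without the null library of E9.5 none of the 9 passed, where 5.12% of all genes were higher, and without the control library of E9.5 4 did, Atoh1, Neurog1, Barhl1 and Lhx2, where 4.17% were higher. With stricter class thresholds 2 of the 8 that could be tested passed (12.2% of all genes). Of the 9, 2 passed without control replicate 1 at E10.5 (8.76%) and 5 without null replicate 2 at E10.5 (12.9%).

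Between genotypes at E10.5, 1 of the 9 genes passed in Sox10 cells, where 0.109% of 13799 genes passed in either direction and 0.0507% were higher. Atoh1 had 0.167 and 0.567 CPM in the controls and 8.51 and 21.7 CPM in the nulls, a log2 difference of 5.03 ± 0.61 (adjusted p = 0.045), with 1 and 7 UMIs behind the control values (95% Poisson intervals 0.00423 to 0.930 and 0.228 to 1.17 CPM). The low-count filter asked for 0.451 CPM in 2 libraries, and Atoh1 reached it in both nulls and in 1 control, so it was tested through the nulls and the size of its fold is not resolved at this depth. Barhl1 (0.167 and 0.486 CPM in the controls and 4.52 and 21.0 CPM in the nulls) was at 4.96 ± 0.82 (adjusted p = 0.082, edgeR). It also reached the filter's minimum in both nulls and in 1 control, so it was tested through the nulls and its fold is not resolved either. Olig3 (1.5 and 0.891 CPM in the controls and 9.41 and 35.5 CPM in the nulls) was at 4.20 ± 0.64 (adjusted p = 0.062, edgeR). For these 3 genes and for Neurog2 and Lhx2 both null libraries were above both controls, as for 27.0% of all genes tested, and null replicate 2 was the highest. Neurog1 ran across the controls, with 8.13 CPM in null replicate 1, below both controls, and 42.9 CPM in null replicate 2, above both.

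Some neural genes were higher beside this call. Of 12 dorsal progenitor and roof plate genes tested 3 passed: Wnt1 (3.91 ± 0.52), Zic1 (3.72 ± 0.54) and Msx1 (2.31 ± 0.33) were higher in null Sox10 cells. None of the 10 neuronal and 9 progenitor markers passed (median log2 differences 1.03 and 0.66). The neuronal markers summed to 365 and 388 CPM in control and 453 and 1105 CPM in null Sox10 cells, with none at 0. Cells that also met the neuronal condition made up 35.4% and 22.6% of control and 52.9% and 82.3% of null Sox10 cells. In cells with the Sox10 condition alone, Atoh1 had 0.745 and 0 CPM in the controls and 1.63 and 9.38 CPM in the nulls and could not be tested for lack of UMIs. Of the 2 genes that could be tested in these cells, Neurog1 was lower in the nulls (-2.09 ± 0.47, adjusted p = 0.020; 1.29% of 10618 genes passed in either direction), with 8.94 and 22.5 CPM in the controls and 3.02 and 6.42 CPM in the nulls, from 12 to 90 UMIs, and Neurod1 did not pass (-1.46 ± 1.01). With at least 3 Sox10 UMIs Atoh1 had 0.215 and 0.54 CPM in the controls and 1.66 and 5.69 CPM in the nulls and did not pass (adjusted p = 0.22). For Atoh1 the mesenchymal cells of the same libraries had 0.189 and 0.187 CPM in the controls and 0.925 and 4.85 CPM in the nulls. Without null replicate 2, 7 of the 9 genes passed with null replicate 1 as the only null library: Atoh1 (4.26 ± 0.52), Barhl1, Olig3 and Lhx2 (1.72 ± 0.45) were higher and Neurod1 (-2.69 ± 0.36), Neurod4 (-2.34 ± 0.51) and Neurog1 (-1.27 ± 0.29) lower, where 7.34% of 13245 genes passed in either direction, the lone library being assumed to vary like the controls. Without null replicate 1 all 9 were higher, where 6.98% of 13584 genes were higher. With either control left out none passed, nor did any with all barcodes kept (Atoh1 2.72 ± 0.56, adjusted p = 0.19) or with cells thinned to 5000 UMIs (Atoh1 adjusted p = 0.067). The part that the neural genes had in the call was not tested.

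**Figure D5:**
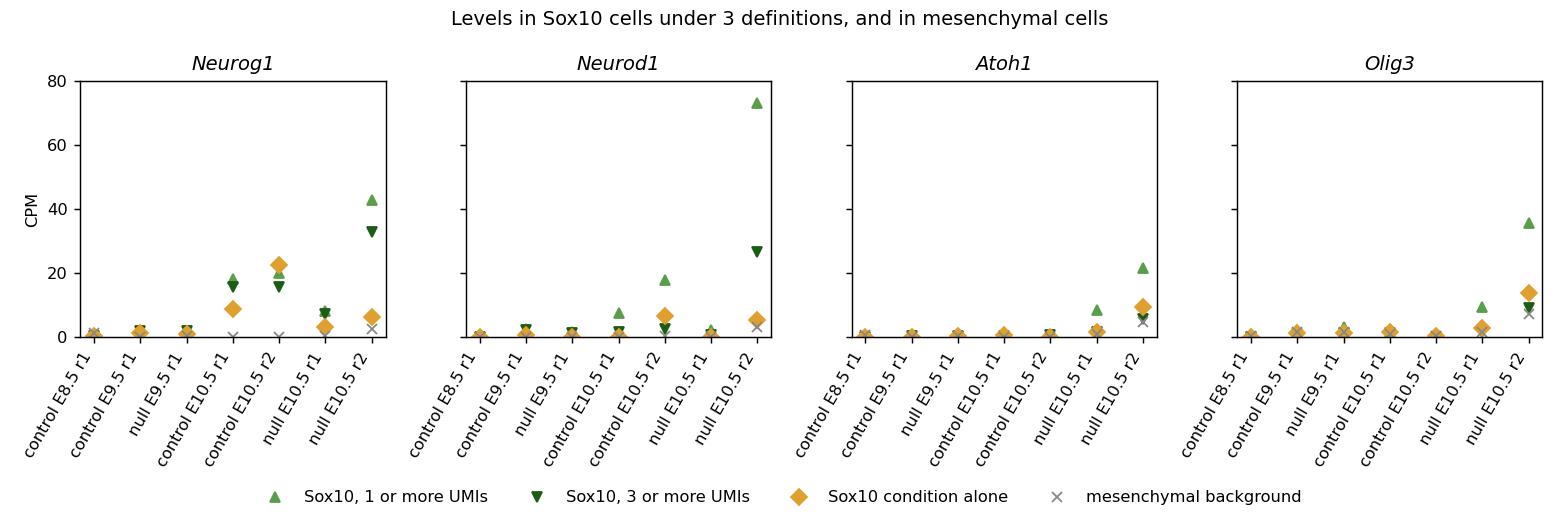
Level of Neurog1, Neurod1, Atoh1 and Olig3, in CPM on a linear axis from 0, in the 7 libraries (r1 and r2 are replicates) for Sox10 cells under 3 definitions and for mesenchymal cells. Neurog1 reaches 18.0 and 20.1 in the E10.5 controls while Atoh1 stays under 1 there, and null replicate 2 at E10.5 is the highest library in each panel under the 1-UMI definition.

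Across the 21 sums of 7 libraries and 3 classes, the genes whose log2(CPM + 1) followed each of the 9 most closely were found among 9451 genes with at least 10 CPM in 1 sum. The sums share libraries and cells, so the correlations describe these sums and carry no test. For Atoh1 they were Gm38534 (r = 0.991), Prdm13 (r = 0.988), Olig3 (r = 0.981); Prdm13 is a dorsal neural tube regulator. For Olig3 they were Fn3k (r = 0.981), Atoh1 (r = 0.981), Plxna2 (r = 0.980), and for Barhl1 Fam110a (r = 0.984), Gm20501 (r = 0.975), Mpp3 (r = 0.974). Neurod1 and Neurod4 were each other's closest (r = 0.965), and Neurod4 was followed by Map2, a neuronal microtubule gene (r = 0.956), and the netrin receptor gene Dcc (r = 0.956). Lhx9 was closest to Scrt2 (r = 0.990), Klhl35 (r = 0.987), Cntn2 (r = 0.978); Cntn2 is a surface protein of commissural axons. For Lhx2 they included Evx1os (r = 0.975) and Tmem163 (r = 0.973), for Neurog2 Gm27032 (r = 0.982), Btbd17 (r = 0.975), Prmt8 (r = 0.974), and for Neurog1 Trp53i11 (r = 0.954), Bicd1 (r = 0.938), Map1b (r = 0.935).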

How the data were processed

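The authors deposited, for each of 7 10x Genomics 3′ libraries, a filtered matrix of raw UMI counts made with Cell Ranger 6.0.1 on mm10, per the labels; no normalization had been applied. Members and gene lists were chosen with earlier results of these data known. A barcode was kept if it had 1000 genes or more and no more than 10% of mitochondrial UMIs. The barcodes with the highest Scrublet doublet scores (scanpy 1.11.5) were removed, their number set in advance at 0.8% of barcodes per 1000 barcodes. Total counts per library are given in the text, and intervals and limits from a count of 0 (3 UMIs; 95% level) cover counting error only. Counts were summed per library and class, filtered with filterByExpr and tested with edgeR 4.0.16 (TMM, quasi-likelihood, Benjamini-Hochberg adjusted p under 0.05; R 4.3.3). Genotype was tested in the 4 E10.5 libraries, stage in the 6 of E9.5 and E10.5 with genotype as covariate, and class in the 4 of E10.5 with library as block and cells of exactly 1 class. Log2 differences carry an SE derived from the test, as the size of the difference over the square root of the quasi-likelihood F statistic. Shares used cells thinned to 5000 UMIs, with the classes set on the full counts. The shares in Sox10 cells with and without Neurog1 UMIs, for Pou4f1, Isl1 and other genes, used full counts. The tests on thinned cells also set the classes on the thinned counts, so their cells differ from those of the main fits. Alternatives were DESeq2 1.42.0, its size factors, no filter on low counts, stricter thresholds (3 Sox2, 10 Tubb3 plus Stmn2 or 3 Sox10 UMIs), thinned cells, all barcodes, cells of exactly 1 class, a replicate block and each library left out. Named genes were the 9, up to 4 genes of a list past the test by size of change, and the 3 genes most correlated with each of the 9; a few genes are not reported here. The scripts were tested on simulated counts with 200 planted 2-fold changes. The genotype fits recovered 8.5% to 12.5% of them, the stage fits 28.5% to 41.5%, and the class fits 94.5% and 98.5%.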

Additional observations from a re-analysis of the deposited data

Results flagged for a closer look

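For some of the 9 genes the null library lay on 1 side of the control at E9.5 and both null libraries lay on the other side of both controls at E10.5. Differences here are null minus control on the log2(CPM + 1) scale, with 1 library per genotype at E9.5, and the difference between the stages was not tested. In progenitor cells this held for Neurog1 (-0.27 at E9.5 and 0.61 at E10.5, 0.877 apart) and Neurog2 (-0.37 at E9.5 and 0.37 at E10.5, 0.742 apart). In neuronal cells it held for Neurog2 (0.20 at E9.5 and -0.38 at E10.5, -0.581 apart), Lhx2 (0.0939 at E9.5 and -0.55 at E10.5, -0.648 apart) and Lhx9 (0.59 at E9.5 and -0.63 at E10.5, -1.23 apart). In Sox10 cells it held for Neurog2 (-0.0543 at E9.5 and 1.97 at E10.5, 2.02 apart) and Lhx2 (-0.18 at E9.5 and 2.08 at E10.5, 2.26 apart), and there the E9.5 values rest on levels near 1 CPM. Over all genes tested, 16.7% in progenitor, 21.3% in neuronal and 20.4% in Sox10 cells showed such a pattern. None of these genes passed between genotypes at E10.5.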

How the results depend on the processing

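The class contrasts kept all their calls with each library left out, apart from the contrast of Sox10 with progenitor cells, and with the 6 libraries of E9.5 and E10.5 Atoh1 no longer passed between neuronal and progenitor cells (0.40). Of 841 refitted log2 differences of the 9 genes 672 kept sign and side of the threshold, 60 newly passed it, 42 no longer passed and 67 changed sign. Of the latter, those of differences that had passed were all of Atoh1 between stages in progenitor cells of exactly 1 class. The number of genes among the 9 that passed between genotypes was 1 in neuronal cells with no filter on low counts (Neurod4, -0.99), where 355 of 22540 genes passed. In Sox10 cells it was 4 with DESeq2 (176 of 13799 genes passed), 7 with no filter (630 of 20566) and 0 with all barcodes kept (6 of 14239). It was 0 of 7 tested with stricter class thresholds (5 of 12772 genes) and 0 of 5 with cells thinned to 5000 UMIs (3 of 10479). With cells of exactly 1 class it was 1 of 2 (Neurog1, lower), where 137 of 10618 genes passed. Between stages it was 8 in progenitor cells with no filter (1854 of 22296 genes higher). With cells of exactly 1 class it was 2 there (Barhl1 higher, Neurog2 lower), where 633 of 13650 genes were higher and 435 lower. In Sox10 cells it was 8 with no filter (2386 of 21373 genes higher) and 7 with all barcodes (2375 of 15301). Fewer of the 9 could be tested there under other settings. It was 2 of 8 with stricter thresholds (1627 of 13375 genes higher), 2 of 6 with thinned cells (1097 of 11117) and 2 of 5 with cells of exactly 1 class (1520 of 11844). With each library left out in turn it ran from 0 to 1 between genotypes in progenitor cells, 0 to 9 in Sox10 cells, and between stages 0 to 6 in progenitor, 0 to 5 in neuronal and 0 to 6 in Sox10 cells. The cause of these changes was not tested.

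The replicate numbers of the E10.5 libraries are shared by the genotypes, but only 2 pairs exist and nothing in the labels ties them. Deviations of same-numbered libraries correlated at 0.230 in progenitor, 0.277 in neuronal and 0.139 in Sox10 cells. With the replicate block, 6 of the 9 genes passed between genotypes in Sox10 cells and 0 in the neural classes, and the number of all genes that passed went from 0 to 20 in progenitor, 3 to 38 in neuronal and 15 to 731 in Sox10 cells. DESeq2 gave 42, 84 and 176 genes there, and 2696 against 1345 between stages in progenitor cells, where it split them into 1314 higher and 1382 lower against 828 and 517. With no filter on low counts 140, 355 and 630 genes passed between genotypes and 3150 and 4045 between stages in progenitor and neuronal cells. Between genotypes 14, 6, 1 and 9 genes passed in neuronal cells and 5, 3, 6 and 137 in Sox10 cells with stricter thresholds, thinned cells, all barcodes and cells of exactly 1 class; between stages in Sox10 cells 2160 passed with thinned cells against 3834. With each library left out in turn, 0 to 153, 11 to 26 and 0 to 1139 genes passed between genotypes in progenitor, neuronal and Sox10 cells, and 0 to 1666, 1 to 3537 and 897 to 5058 between stages.

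The sign changed between genotypes in progenitor cells, with cells thinned to 5000 UMIs for Neurod4 (-0.0644), with all barcodes kept for Neurod4 (-0.0258), Lhx2 (0.0368) and Lhx9 (0.0798), with cells of exactly 1 class for Neurod4 (-0.62) and Lhx2 (0.64), with the replicate block for Neurod4 (-0.0464). The sign changed between genotypes in neuronal cells, with stricter thresholds for Atoh1 (0.17), with cells thinned to 5000 UMIs for Atoh1 (0.23), with all barcodes kept for Atoh1 (0.0935), with cells of exactly 1 class for Atoh1 (0.80), Lhx2 (0.0023) and Olig3 (0.0479). The sign changed between genotypes in Sox10 cells, with cells of exactly 1 class for Neurog1 (-2.09) and Neurod1 (-1.46), with the replicate block for Neurog1 (-0.0423) and Neurod4 (-0.0577). The sign changed between stages in progenitor cells, with cells of exactly 1 class for Atoh1 (-0.25) and Neurog2 (-0.91), in these cells with DESeq2 size factors for Atoh1 (-0.30) and Neurog2 (-0.96), and in these cells with no scaling factors for Neurog2 (-0.58); these other scalings were added after seeing the data. The sign changed between stages in neuronal cells, with stricter thresholds for Neurog1 (-0.47), Neurod1 (-0.70) and Neurod4 (-0.0899), with cells thinned to 5000 UMIs for Neurog1 (-0.40), Neurod1 (-0.65), Neurod4 (-0.19) and Olig3 (-0.14), with cells of exactly 1 class for Neurog1 (-0.74), Neurod1 (-0.82) and Olig3 (-0.47). The sign changed between Sox10 and progenitor cells, with DESeq2 for Neurod1 (-0.37), with DESeq2 size factors for Neurod1 (-0.0018), with no filter on low counts for Neurod1 (-0.0523), with stricter thresholds for Neurod1 (-1.42), with all barcodes kept for Neurod1 (-0.56), with 6 libraries for Neurod1 (-0.93). With each library left out in turn the log2 difference ran on both sides of 0 between genotypes in progenitor cells for Atoh1 (-0.0410 to 0.30), Neurog2 (-0.0577 to 0.65), Neurod1 (-1.30 to 1.47), Neurod4 (-1.12 to 0.87), Lhx2 (-0.35 to 0.19), Lhx9 (-0.40 to 0.30) and Olig3 (-0.66 to 0.27). So it did between genotypes in neuronal cells for Atoh1 (-0.49 to 0.33), Neurog1 (-0.0590 to 0.15), Neurod1 (-1.97 to 0.38) and Olig3 (-0.75 to 0.16). So it did between genotypes in Sox10 cells for Neurog1 (-1.27 to 1.08), Neurod1 (-2.69 to 2.38) and Neurod4 (-2.34 to 1.5). So it did between stages in neuronal cells for Neurod1 (-0.34 to 0.73) and Olig3 (-0.10 to 0.27). So it did between stages in Sox10 cells for Atoh1 (-1.01 to 3.43) and Olig3 (-1.39 to 2.37). So it did between Sox10 and progenitor cells for Neurog1 (-1.74 to 0.0300).

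The share of cells with a UMI of any of the 9 was 54.6% of progenitor and 61.1% of neuronal cells with cells thinned to 3000 UMIs, 79.0%, 80.8% and 33.4% of progenitor, neuronal and Sox10 cells without thinning, and 83.5% of neuronal cells with stricter thresholds. These are means of the E10.5 libraries. The Sox10 share without thinning was 16.5% and 17.1% in the controls, 25.8% in null replicate 1 and 74.1% in null replicate 2. Without thinning, the ratio of observed to expected cells was 0.383 for Atoh1 and Neurog2, 2.88 for Atoh1 and Barhl1, 2.66 for Neurog1 and Neurog2 and 3.0 for Neurog2 and Neurod4; for Atoh1 and Barhl1 it was 3.95 at 3000 UMIs and 3.28 with stricter thresholds. These alternatives for pairs of genes were chosen after seeing the data. Stage and genotype comparisons rest on 2 libraries in the smaller group, so leaving 1 out leaves a lone library that is assumed to vary like the rest. In control Sox10 cells at E10.5 only 1 and 7 UMIs of Atoh1 and 1 and 6 of Barhl1 were counted, so differences between such levels are not resolved at this depth.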

Other observations

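Further values come from E8.5 neural cells. En1 or En2, of the midbrain and isthmus, was found in 48.9% of Neurog1-positive cells of that library and in 43.5% of all its neural cells. Olig3-positive cells there had a Hox gene in 64.0% of 25 cells, and Otx2 in none of them, which allows a share of up to 12%. These are counts of cells of 1 library with no replicate.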
